A study of Mus musculus with 4 samples.

Results

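Scrg1, Sox10 and 6 genes of Schwann cells and their myelin (Mbp, Prx, Mag, S100b, Ngfr and Pmp22) were followed through mammary glands labelled stathmin knockout or wild type. These 8 genes, of 18952 with a named probe on the array, were chosen by symbol because Scrg1 and Sox10 read lower on the knockout arrays than on the wild-type arrays, and the other 6 stand beside them as a readout of nerve content. The choice therefore used the knockout against wild-type difference, which is given below as a description with no test. The arrays measured total RNA of mammary glands taken at 13 weeks of age from female mice, all of which carried the Δ16HER2 transgene, a splice form of the HER2 receptor, and had not yet formed tumours. One pair of arrays is labelled STM KO, for stathmin knockout (KO 1 and KO 2), and the other WT (WT 1 and WT 2), and both are called here by these labels. One label calls the samples EOC cells, while the tissue and source labels give mammary gland, which is followed here. The promoter of the transgene and the cells of the deletion are not given in the sources used here, and nothing says that each array came from a separate animal.

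Schwann cells wrap the axons of peripheral nerves, and those around large axons build myelin from membrane proteins such as Pmp22 and the cytoplasmic protein Mbp. SOX10 is the transcription factor that Schwann cells need at every stage, and together with EGR2 it switches on myelin genes. A mammary gland holds nerve fibres in its fat and around its vessels. SOX10 is also made outside nerve, in melanocytes and in basal and progenitor cells of the mammary epithelium. Scrg1, a small secreted protein first found as a transcript that rises in scrapie-infected mouse brain, is also known from cartilage and mesenchymal stem cells.

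Levels are log2 processed signals minus the 75th percentile of their array, so 0 is the level of that percentile, and differences are KO minus WT on that scale. The 75th percentile was a signal of 291 on KO 1 and 160 on KO 2, against 191 on WT 1 and 144 on WT 2. Spots well above background made up 60.4% and 66.2% on the KO arrays, against 63.3% and 54.7% on the WT arrays. Only 2 arrays stand for each genotype, which bounds the precision of all values. The brighter probe of the targeted gene Stmn1 read 4.56 and 3.34 on the KO arrays, against 5.59 and 3.59 on the WT arrays, which overlap. Its dimmer probe was well above background on neither KO array and on 1 of the 2 WT arrays (-5.71 and -5.05, against -1.13 and -3.39), so the labels separate on the dimmer probe and not on the brighter one. Where either probe lies relative to the deleted part is not given in the sources used here.

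The promoters of 5 of the 8 genes (Prx, Mag, S100b, Pmp22 and Ngfr) were matched in the RefSeq table of build GRCm38.p6. Those of the myelin genes Prx and Mag and of S100b are shown because SOX10 is known to act on myelin genes and its own level differed between these glands by more than theirs did. Each is the 250 bases before the transcription start, 5′ to 3′ on the gene's strand, with SOX core motifs in capitals (the core ACAAAG, its variant written ACAATG, and further variants written TCAAAG and also TCAATG, all searched on both strands, with no overlap between matches here).
Prx, chr7:27499074-27499323, plus strand: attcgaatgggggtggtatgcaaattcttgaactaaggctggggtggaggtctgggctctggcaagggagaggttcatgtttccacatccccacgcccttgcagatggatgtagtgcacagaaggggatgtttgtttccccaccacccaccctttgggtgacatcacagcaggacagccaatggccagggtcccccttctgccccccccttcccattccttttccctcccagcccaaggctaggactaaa
Mag, chr7:30914923-30915172, minus strand: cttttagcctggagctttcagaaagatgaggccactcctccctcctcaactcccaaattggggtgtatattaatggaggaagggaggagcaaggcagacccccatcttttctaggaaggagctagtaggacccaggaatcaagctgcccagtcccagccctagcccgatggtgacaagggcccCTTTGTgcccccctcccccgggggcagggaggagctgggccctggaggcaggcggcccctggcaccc
S100b, chr10:76253586-76253835, plus strand: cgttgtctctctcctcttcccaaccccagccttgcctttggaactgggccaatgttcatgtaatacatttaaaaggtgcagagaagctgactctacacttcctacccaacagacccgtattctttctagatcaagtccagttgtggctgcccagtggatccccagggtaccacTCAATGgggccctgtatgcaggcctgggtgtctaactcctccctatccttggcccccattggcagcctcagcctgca
The Mag window held 1 match, whose first base lay 67 bases before the start, the S100b window held 1 match at 77 bases, and the Prx window held 0. Over all 10 windows of these 5 genes, of which some overlap, 4 held a match, and 39.4% of the 32851 windows in the whole table did. A match of these letters describes the sequence and does not mark a bound site.

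Scrg1 had the lowest difference of all 13234 genes tested. Its 1 probe gave signals of 5.51 on KO 1 and 13.6 on KO 2, against 231 on WT 1 and 403 on WT 2, which are levels of -5.73 and -3.55 against 0.27 and 1.48. Both KO arrays lay far below both WT arrays, and the difference was -5.52 ± 0.80 (limma SE, n = 2 per group). The scanner software gave these KO signals errors of 2.74 and 2.21, and only KO 2 was well above background. The lowest signal called well above background was 10.5 on KO 1, so the KO 1 level is a reading in the background, and the size of the difference is uncertain for that reason. Scrg1 entered the tested genes only through the WT arrays, where it is high.

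Sox10 was bright on all 4 arrays. Its brighter probe read 0.65 and -0.38 on the KO arrays, against 2.42 and 1.71 on the WT arrays, from signals of 458 and 123 against 1022 and 473. The groups did not overlap, and the difference was -1.93 ± 0.45 (SE, n = 2 per group), a WT level 3.81 times the KO level. Among all genes tested, 0.234% had a lower difference. The second Sox10 probe was well above background on none of the arrays and gave -6.54 and -5.43 on the KO arrays, against -3.93 and -5.50 on the WT arrays, so the gene's difference rests on 1 probe. The tissue was profiled whole, so fewer cells that make Sox10 and less Sox10 RNA per cell cannot be told apart, here or for any gene below.

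**Figure D1:**
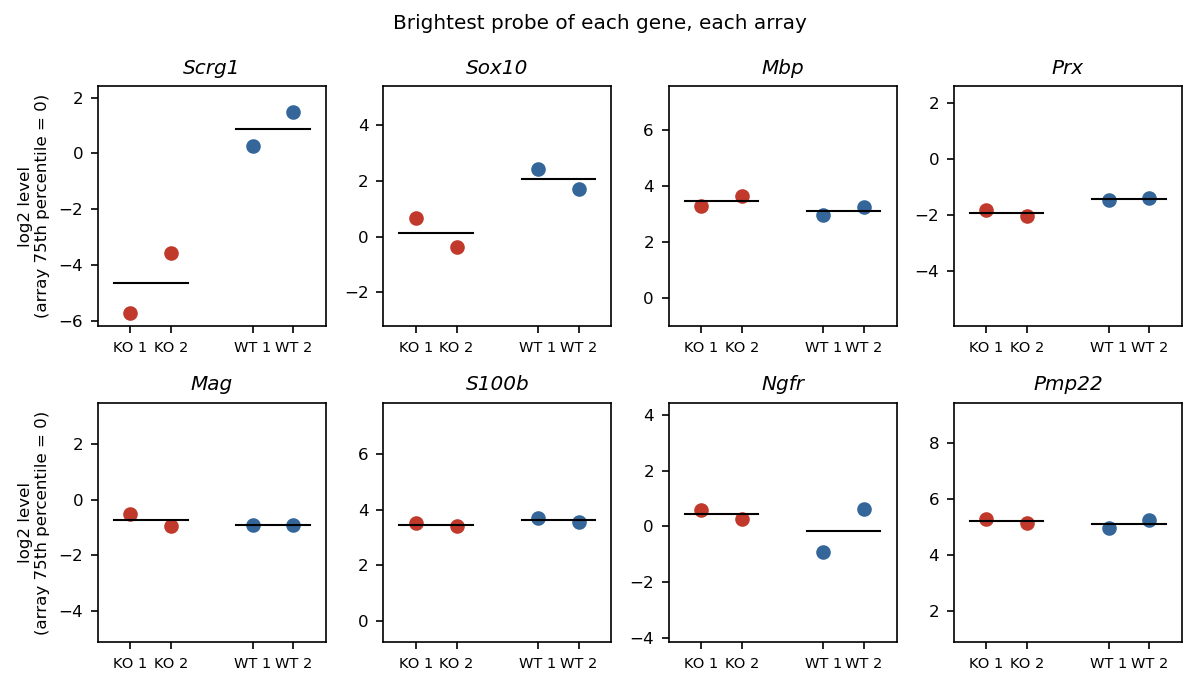
Levels of the brightest probe of each of the 8 genes, with array on the horizontal axis and log2 level relative to the array's 75th percentile on the vertical axis, all panels spanning the same number of log2 units; points are single arrays and lines are group means. Scrg1 and Sox10 separate KO from WT by -5.52 and -1.93, and for the other 6 genes the group means differ by at most 0.59.

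The 6 Schwann cell and myelin genes showed no such drop. Their differences ran from -0.50 (Prx) to 0.59 (Ngfr) with a median of 0.14, against a median of -0.01 over all genes, and 2 of the 6 were negative, as were 50.7% of all genes. These values use each gene's brightest probe, and with a gene's probes averaged the median of the 6 was -0.025. None of the 6 was called by limma's test over all genes at an adjusted p under 0.05, a rule that called 0% of genes in either direction. At an unadjusted p under 0.05 the same fit called 1.14% of genes higher and 2.4% lower, and again none of the 6. Since the 6 were chosen with this comparison in view, these counts are given beside the background and nothing is read from them.

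Mag, Prx and Mbp encode proteins of the myelin sheath, and for Mbp the reading depended on the probe. Mag, an adhesion protein on the myelin face next to the axon, read -0.52 and -0.95 on the KO arrays, against -0.90 and -0.92 on the WT arrays. KO 1 is the high reading and the other 3 lie close together, so the difference of 0.18 ± 0.27 (SE) is smaller than the gap between the KO arrays. A second Mag probe was well above background on no array. Prx, which encodes periaxin, a scaffold of the Schwann cell membrane, read -1.82 and -2.04 on the KO arrays, against -1.47 and -1.38 on the WT arrays. Prx is the member with the lowest difference after Sox10, at -0.50 ± 0.25, and its KO readings lie below both WT readings, as they did for 17.7% of all genes.

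Mbp, a cytoplasmic protein that compacts myelin, was read by 3 probes that did not give the same sign. The brightest, to a different RefSeq transcript (NM_001025245) than the others, read 3.29 and 3.65 on the KO arrays, against 2.98 and 3.25 on the WT arrays, a difference of 0.36 ± 0.27 (SE). Both KO arrays lay above both WT arrays there, as for 17.8% of genes. The second probe (NM_010777) was printed in 10 spots and averaged 0.99 and 0.11 on the KO arrays, against 0.80 and 1.17 on the WT arrays, with SDs over spots of 0.29 to 0.45. KO 2 was low on it and KO 1 was not, which leaves the groups overlapping at -0.44 ± 0.38. The dimmest probe, to the same transcript, read -2.82 and -2.59 on the KO arrays, against -2.45 and -2.22 on the WT arrays, a difference of -0.38 ± 0.26 with no overlap. The direction for Mbp therefore depends on the probe.

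S100b, Ngfr and Pmp22 mark Schwann cells but are made by other cells of this tissue as well. S100b, a calcium-binding protein also abundant in fat cells, read 3.53 and 3.40 on the KO arrays, against 3.70 and 3.54 on the WT arrays. Both KO readings lie below both WT readings, but the difference of -0.16 ± 0.24 (SE) is about as large as the gap within each genotype. Pmp22, a membrane protein of compact myelin that fibroblasts and epithelia also express, read 5.30 and 5.14 on the KO arrays, against 4.99 and 5.25 on the WT arrays, and its difference of 0.10 ± 0.25 comes with overlapping groups. Ngfr, the low-affinity receptor for neurotrophins, which non-myelinating Schwann cells and basal epithelium carry, averaged 0.59 and 0.28 on the KO arrays, against -0.94 and 0.62 on the WT arrays. WT 1 alone was low. The Ngfr probe had 10 spots on each array, 9 of them usable on KO 2, and their SDs of 0.06 to 0.15 are far smaller than the gap of -1.56 between WT 1 and WT 2. Without WT 1 the difference of 0.59 became -0.19. A dim second Ngfr probe was well above background on the KO arrays only and gave -0.10.

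**Figure D2:**
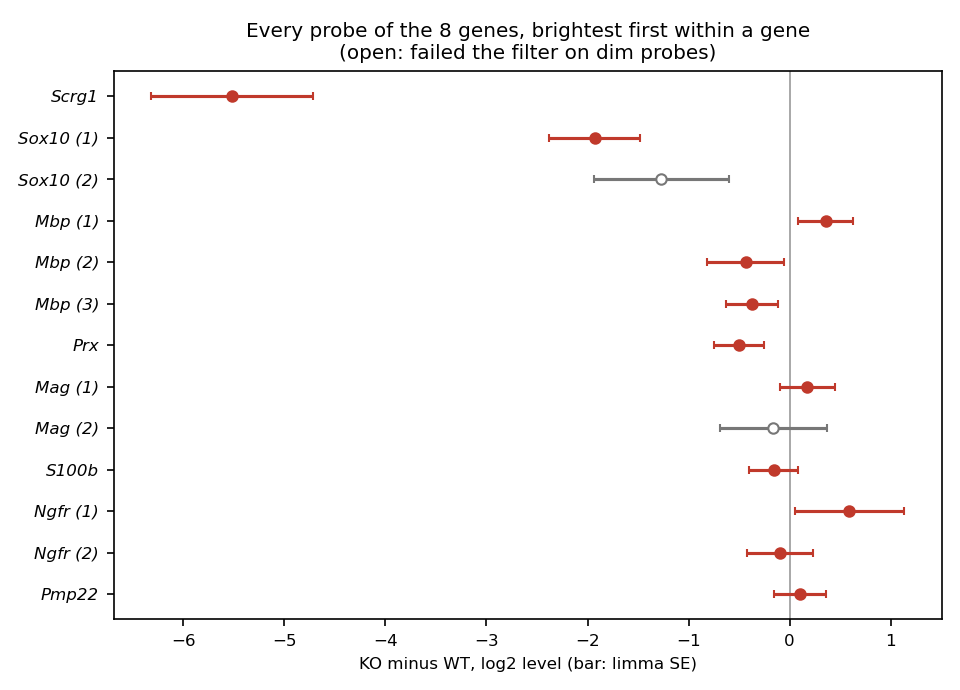
KO minus WT difference of all 13 probes of the 8 genes on the log2 scale, with limma SEs as bars; numbers in brackets order a gene's probes by brightness and open symbols mark the 2 probes that failed the filter on dim probes. The Mbp probes lie on both sides of 0, and the Scrg1 probe and the brighter Sox10 probe stand at -5.52 and -1.93.

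Within a genotype, Scrg1 and Sox10 went opposite ways. This comparison does not use the difference between genotypes. Scrg1 was lower on KO 1 than on KO 2 by -2.17 and lower on WT 1 than on WT 2 by -1.21. Sox10 was higher on KO 1 than on KO 2 by 1.03 and higher on WT 1 than on WT 2 by 0.71. For scale, the median absolute gap over all genes was 0.32 between the KO arrays and 0.26 between the WT arrays. The 6 Schwann and myelin genes had gaps of -0.35 to 0.43 between the KO arrays and, apart from Ngfr, of -0.26 to 0.16 between the WT arrays. With 2 arrays per genotype and a Scrg1 reading in the background on KO 1, these gaps carry no test.

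**Figure D3:**
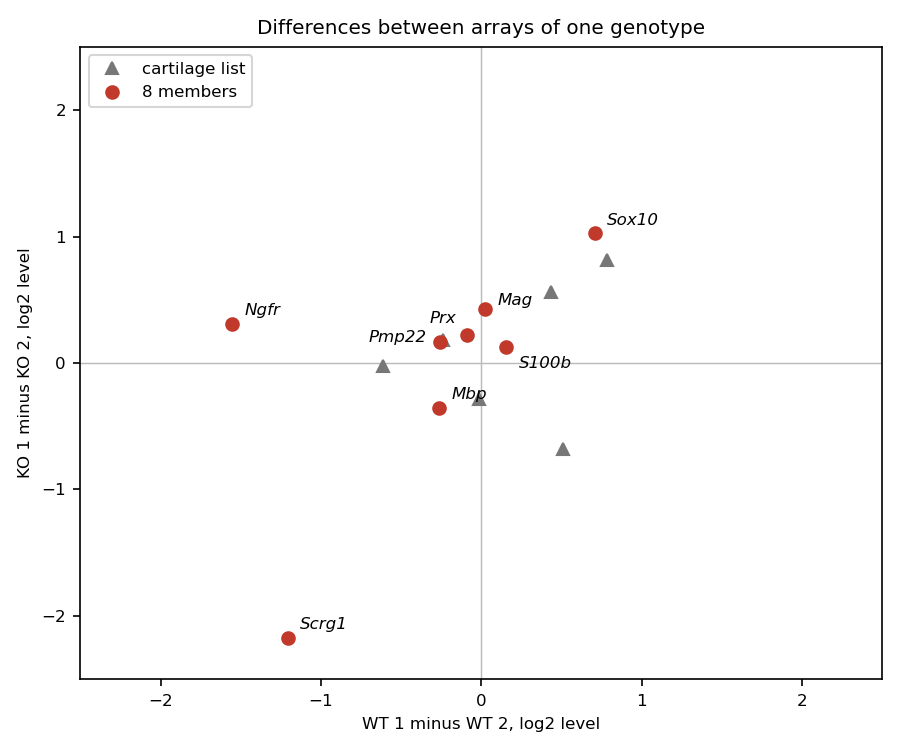
Gap between the arrays of each genotype on the log2 scale, WT 1 minus WT 2 on the horizontal axis and KO 1 minus KO 2 on the vertical axis, for the brightest probe of the 8 genes (circles) and the 6 tested cartilage genes (triangles). Scrg1 lies at -1.21 and -2.17 and Sox10 at 0.71 and 1.03. Sox9 lies near Sox10, at 0.78 and 0.81, and Ngfr lies at -1.56 and 0.31. Comp (0.51 and -0.68), Col9a2 (0.43 and 0.56) and Col9a1 (-0.61 and -0.02) are also off 0, and the rest lie nearer to it.

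Further myelin genes gave a slightly lower median than the 6. Of 16 listed, 10 were tested, none was called in either direction, 9 differences were negative, against 50.7% of all genes, and the median was -0.21. At an unadjusted p under 0.05 in limma's test, 1 of the 10 was lower, against 2.4% of all genes. For 2 of the 10, both KO arrays lay below both WT arrays, close to the background of 17.7%. Cnp, an enzyme of non-compact myelin, was at -0.01 ± 0.31 (SE). The cell adhesion gene Cadm4 had -0.49 ± 0.35. Fa2h, a hydroxylase for myelin lipids, had -0.41 ± 0.50. Gal3st1, which sulphates galactolipids, was well above background on the KO arrays only, where it was at least 1.21-fold higher. The summed signal of the 10, in units of each array's 75th percentile, was 4.41 and 4.06 on the KO arrays, against 3.98 and 5.39 on the WT arrays, so the sums overlap.

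Regulators of Schwann cells and genes of their non-myelinating state made up a further list. Of 21 listed, 13 were tested and none was called. Their median was -0.35, and 12 of the 13 differences were negative, against 50.7% of all genes. For 6 of the 13 both KO arrays lay below both WT arrays, against 17.7% of all genes. Among lists from other tissues, 11 of 13 luminal epithelium and 10 of 12 skeletal muscle differences were also negative. Of the white adipocyte and lymphocyte differences, 3 of 10 and 0 of 8 were negative. Lpar1, a lysophosphatidic acid receptor, had -1.36 ± 0.63 (SE), most of it from KO 2, which read -2.58 against -0.73 on KO 1. Foxd3, a neural crest transcription factor, had -0.72 ± 0.30, and Erbb3, the neuregulin receptor of Schwann cells that luminal epithelium also makes, -0.70 ± 0.61, or -1.24 on its second probe. Adgrg6, a receptor needed for myelination, had -0.53 ± 0.27. Egr2, the partner of SOX10 on myelin genes, read 3.25 and 1.97 on the KO arrays, against 2.79 and 2.26 on the WT arrays, with a difference of 0.08 ± 0.49. Sox8, a close relative of Sox10, had -0.36 ± 0.37. The summed signal of the 13 was 74.3 and 72.3 on the KO arrays, against 74.9 and 73.9 on the WT arrays. Most of each sum came from Cryab, at 5.77 and 5.91 on the KO arrays, against 5.85 and 5.84 on the WT arrays. The sums therefore say little about the other genes of the list.

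Brightness moves with these differences and bounds what dim members can show. Over all tested genes with a mean level under -1, the median difference was -0.09 and 59.7% were negative, against 0.02 and 46.5% for brighter genes. Among genes too dim to be tested, the median was -0.46 and 80.4% were negative. The 6 untested myelin genes (Pmp2, Gjb1, Drp2, Ncmap, Nfasc and Gldn) and the 8 untested Schwann genes, among them Sox2, Gap43, Gfap, Cdh19 and L1cam, are of that kind. The KO mean was below the WT mean for all 14, for Drp2 by only -0.029, and 8 of them were well above background on no array. The part of brightness in the tested lists was not tested.

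Axon genes were mostly out of reach. Of 18 listed, 7 were tested, with none called and a median of -0.13. That median changed sign with the processing, at 0.034 without KO 1, 0.16 without WT 1, -0.49 without WT 2 and 0.057 after quantile normalization. The axonal filament genes Prph, Nefl and Nefm, the noradrenaline synthesis genes Th and Dbh and the synaptic genes Snap25 and Syt1 were well above background on no array. Slc6a2, the noradrenaline transporter of sympathetic nerve endings, read -6.25 and -5.98 on the KO arrays, against -2.34 and -2.76 on the WT arrays, and was at least 3.98-fold lower on the KO arrays, where it was not well above background. The neurofilament gene Nefh had -0.86 ± 0.48 (SE). Calca, the calcitonin and CGRP gene, read 5.60 and 0.52 on the KO arrays, against 6.53 and 0.49 on the WT arrays, high on 1 array of each genotype. Gal, the neuropeptide galanin, was well above background on the KO arrays only, at least 1.05-fold higher there.

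Neurotrophins and their receptors, the ligands and partners of Ngfr, had 6 of 9 genes tested, none called, and a median of 0.10, which ran from 0.060 without KO 1 to 0.31 without WT 2. The sorting receptor gene Sorcs2 had 1.18 ± 0.61 (SE), with WT 2 low at -2.34 and the other 3 arrays between -0.69 and 0.04. The receptor gene Ntrk3 had 0.53 ± 0.40, Bdnf -0.11 ± 0.58 and Ntf5 0.18 ± 0.32. Their groups overlapped in all 4 cases.

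Cartilage, a tissue known to make Scrg1, was followed through its own genes. Of 15 listed, 6 were tested, all well above background on all 4 arrays, and all 6 differences were negative with a median of -1.30, against -0.01 over all genes. None was called at an adjusted p under 0.05. At an unadjusted p under 0.05, 3 of the 6 were lower, against 2.4% of all genes. For 5 of the 6 both KO arrays lay below both WT arrays, against 17.7% of all genes. The list was chosen with the low Scrg1 values known. Col9a1, a chain of type IX collagen, read -2.41 and -2.39 on the KO arrays, against 0.44 and 1.05 on the WT arrays, a difference of -3.15 ± 0.30 (SE). The paired chain gene Col9a2 read 0.47 and -0.09 on the KO arrays, against 2.29 and 1.85 on the WT arrays, at -1.88 ± 0.32. Both pairs are cleanly apart, with gaps inside each genotype of at most 0.61.

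Comp, a matrix protein of cartilage and tendon, had a difference of -1.67 ± 0.35 (SE), from -2.99 and -2.31 on the KO arrays, against -0.72 and -1.23 on the WT arrays. Sox9, the SOX factor that drives cartilage formation and is also made by mammary luminal progenitors, read 0.03 and -0.78 on the KO arrays, against 0.93 and 0.15 on the WT arrays, at -0.92 ± 0.42. Its partners Sox5 and Sox6 had -0.30 ± 0.25 and -0.03 ± 0.25. The summed signal of the 6 genes was 6.66 and 6.69 on the KO arrays, against 13.2 and 11.7 on the WT arrays. Of the untested cartilage genes, Acan, Col11a2 and Chad were each well above background on 1 WT array and on no KO array. Col2a1 was so on 1 array of each genotype, and Matn1, Matn3, Cnmd, Hapln1 and Ucma on none. Chad read -3.83 and -4.17 on the KO arrays, against -1.80 and -2.38 on the WT arrays. The cell type that carried these genes was not tested.

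**Figure D4:**
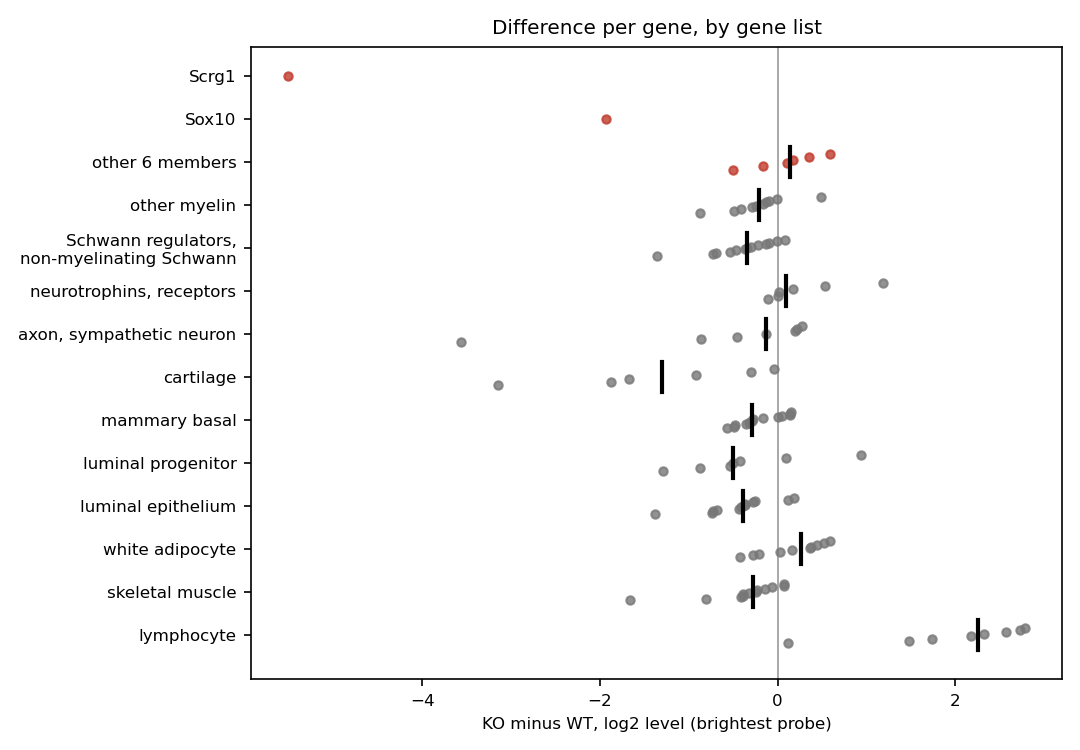
KO minus WT difference on the log2 scale for the brightest probe of each tested gene, by list; points are genes and thick bars are list medians, with Scrg1, Sox10 and the other 6 members in red. The 6 other members centre on 0.14, the cartilage genes on -1.30 and the lymphocyte genes on 2.25.

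Genes whose profile over the 4 arrays was most like that of each of the pair were found by the root mean square difference of centred levels, over 13233 other genes. Nearest to Scrg1 were the secretoglobin Scgb2b27 (0.62), the casein Csn1s2a (1.15), the secreted carbonic anhydrase Car6 (1.15), Slc6a2 (1.32) and the GABA receptor subunit Gabra4 (1.33). Nearest to Sox10 were the ectoenzyme gene Enpp3 (0.19), Col9a2 (0.19), Decr2, a peroxisomal enzyme of fatty acid oxidation (0.20), Wfdc18, a secreted whey acidic protein relative (0.25), and Sprr2f, a small proline-rich protein (0.27). Scrg1 and Sox10 were 2.23 apart. Among the 6 Schwann and myelin genes, Prx was nearest to both, at 2.67 from Scrg1 and 0.82 from Sox10. With 4 arrays and a profile dominated by the genotype gap, these distances describe the arrays only.

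Other cells known to make Sox10 were read through their own markers. Mammary basal genes, 14 of 14 tested and none called, had a median of -0.28. That median was 0.040 without KO 2 and 0.0017 without WT 1, but -0.43 without KO 1 and -0.47 without WT 2. Of the 14 differences, 9 were negative and 5 positive, against 50.7% negative over all genes. Those largest in size were Il17b at -0.57 ± 0.47 (SE), Cdh3 at -0.49 ± 0.32, the smooth muscle myosin gene Myh11 at -0.48 ± 0.24 and the keratin gene Krt14 at -0.35 ± 0.54. The summed signal of the 14 was 129 and 114 on the KO arrays, against 156 and 132 on the WT arrays. Most of it came from Acta2, Tagln and Cnn1, which had -0.32 ± 0.25, -0.31 ± 0.25 and -0.28 ± 0.31. Luminal progenitor genes, 7 of 8 tested and none called, had a median of -0.50. It was -0.15 without WT 2 and -0.32 without KO 1, but -0.60 without WT 1 and -0.55 without KO 2. Gabrp, a GABA receptor subunit of these cells, read -0.42 and -0.87 on the KO arrays, against 0.58 and 0.72 on the WT arrays. The alveolar regulator Elf5 had -0.88 ± 0.51, the Notch target Hey1 -0.54 ± 0.36 and the lactoferrin gene Ltf 0.94 ± 0.99. Their summed signal was 41.8 and 32.8 on the KO arrays, against 38.2 and 55.0 on the WT arrays, which overlap. Ltf weighs heavily on these sums, at 4.17 and 3.48 on the KO arrays, against 1.36 and 4.41 on the WT arrays. The overlap therefore says little about the other genes of the list.

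Melanocytes left little signal, with 2 of 8 genes tested. Dct, a melanin enzyme, had 0.38 ± 0.26 (SE), or 1.07 on its second probe, and Mitf, a factor that other cells also make, -0.28 ± 0.30, while Tyr, Tyrp1, Oca2 and Slc45a2 were well above background on no array. Of 5 oligodendrocyte genes, Olig1 alone was tested (1.02 ± 0.76, but -0.15 without WT 2, where its reading of -5.24 was not well above background), and Mog, Mobp, Opalin and Olig2 were well above background on no array. Luminal epithelium genes, 13 of 14 tested, had a median of -0.39, which was -0.78 without KO 1 and -0.085 without KO 2, with Ehf at -1.38 ± 0.74, Esrp1 at -0.74 ± 0.36, Spint1 at -0.73 ± 0.37 (-1.24 on its second probe) and Cldn3 at -0.68 ± 0.51.

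Other tissues in these samples differed between arrays as well. White adipocyte genes, 10 of 11 tested, had a median of 0.27, which was 0.59 without WT 2 and -0.00044 without WT 1, with Lep at 0.59 ± 0.54 (SE), Pnpla2 at 0.53 ± 0.34 (-0.13 on its second probe), Lipe at 0.44 ± 0.31 and Fabp4 at -0.42 ± 0.33. S100b, shared with fat, was at -0.16 beside them. Skeletal muscle genes, all 12 tested, had a median of -0.28, which was 0.014 without KO 1 and -0.53 without KO 2. Pvalb had -1.66 ± 0.58, Ryr1 -0.81 ± 0.36 (0.16 on its second probe), Myh4 -0.41 ± 0.26 and Acta1 -0.39 ± 0.32. Lymphocyte genes, all 8 tested, had a median of 2.25, or -0.039 without KO 2, with a summed signal of 0.874 on KO 1 and 31.1 on KO 2, against 0.990 on WT 1 and 0.920 on WT 2. The lymphocyte genes Cd3d, Ms4a1, Cd79b and Cd2 all read highest on KO 2. No gene of these lists was called, and the part of any of these tissues in the values of Scrg1 and Sox10 was not tested. Scrg1 was -4.43 without KO 1 and -6.60 without KO 2, and Sox10 was -2.44 and -1.41, in the same order. The Scrg1 value without KO 2 rests on the KO 1 reading in the background.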

How the data were processed

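Cy3-labelled RNA of 4 mouse mammary gland samples was read on one-colour Agilent arrays. The authors deposited 1 spot intensity file per array, holding background-subtracted signals with no step between arrays. The scanner software was Agilent Feature Extraction, for which the file headers give 11.5.1.1 and the submitters' processing notes give 10.7.3.1. All 4 arrays share 1 slide and 1 scan per the file headers, so no batch could be tested, and slide position cannot be told apart from genotype. A further deposited table holds log2 values. It matched quantile-normalized log2 signals centred on each probe's median (Pearson r at least 0.99999 across probes), with column medians of 0.00626 and -0.00958 for KO 1 and KO 2, against -0.018 and 0.0183 for WT 1 and WT 2.

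Control spots and outlier spots (35 to 73 per array) were left out, log2 signals were averaged over the spots of a probe, and each array's 75th percentile was subtracted. A probe entered the test if both arrays of a genotype had it well above background (24183 of 41174). Unversioned accessions matched to RefSeq named 27816 probes from 18952 genes, and a gene's brightest probe stands for it (13234 genes tested). KO and WT were set against each other by limma (version 3.58.1, R 4.3.3), using lmFit and eBayes without covariates (Benjamini-Hochberg over all probes, threshold 0.05), tested on simulated data. The smallest adjusted p was 0.935. A fold is written "at least" where a probe was well above background on no array of a group, the dim group then being set at the higher of its reading and the array's lowest signal well above background. P-values measure only the spread between these samples. Signal over background limits dim genes, and no counting interval applies.

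The members and gene lists were chosen with earlier results of these data known, so lists are described by counts and medians. Named are all probes of the members, up to 4 genes per list with the largest absolute difference, Slc6a2, and the 5 genes nearest in profile to Scrg1 and to Sox10. Single values of some myelin genes are not reported here. Cnp, Egr2, Sox8, Cryab, Sox5, Sox6, Chad, Acta2, Tagln, Cnn1 and the genes listed as not well above background were added after their values were seen. The alternatives were other scalings, background correction, filters, probe choice, the replicate number as a block and each array left out. Normexp was planned on mean signals and run on median signals, since the files used here hold no mean signal column.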

Additional observations from a re-analysis of the deposited data

How the results depend on the processing

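Across 8 alternatives that kept all arrays, of which normexp on median signals was chosen after seeing the data, Sox10 ran from -1.95 to -1.39 and kept its sign in each. Scrg1 kept its sign in the 7 that give it a value (it fails the filter that asks for all 4 arrays) and ran from -5.52 to -5.30 except under normexp, where it was -2.74. The offset of 50 added there raises the lowest signals. No gene was called higher under any alternative, and none lower except under median scaling. That scaling put the all-gene median at 0.17 and called 5 lower (Csn1s2a, Scrg1, Slc6a2, Col9a1 and Scgb2b27, named after their values were seen). Sox10 was not among them, and the cause was not tested. Scrg1 was chosen for this same difference, so its call is no test of it. Scrg1, Slc6a2 and Scgb2b27 also passed the filter only through the WT arrays, where they are high. The median of the 6 Schwann and myelin genes moved from 0.14 to 0.31 under median scaling and turned to -0.025 when each gene's probes were averaged, where Mbp became -0.15. S100b turned from -0.16 to 0.016 under median scaling. The median of the further myelin genes stayed negative, between -0.26 and -0.032. The cartilage median ran from -1.31 to -0.80. Under median scaling the mammary basal and skeletal muscle medians were both -0.11 and the axon median 0.044.

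With 1 array left out at a time, the lone array being assumed to vary like the others, Scrg1 ran from -6.60 to -4.43, Sox10 from -2.44 to -1.41, the 6 genes' median from -0.054 to 0.20, the further myelin genes from -0.46 to -0.016 and the cartilage genes from -1.62 to -0.97, with 0 genes called in either direction. With the replicate number as a block, Scrg1 stayed at -5.52 and Sox10 at -1.93, since the design is balanced, and 0 genes were called. Same-numbered arrays hardly deviated together (r = 0.06 over 24183 probes), and the labels do not say that a number links them. Readings near background limit Scrg1 on KO 1 and the dim nerve genes.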
